A study of Mus musculus with 8 samples.

Results

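The difference between 2 mouse mammary lines in their response to PM2.5 was measured as an interaction, gene by gene. For each gene the log2 change with PM2.5 in the wildtype line EpH4 was subtracted from the log2 change with PM2.5 in the transformed line EpH4-AS. A positive value means that the gene moved further up, or less far down, in EpH4-AS, and a negative value means the reverse. All 8 libraries of the series entered the contrast, and of 25413 genes listed with counts, 13716 had enough reads to be tested. Of those, 1932 had an interaction past an adjusted p of 0.05 in the edgeR quasi-likelihood test, and these are the line-dependent genes described here.

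The groups were EpH4-AS spheroids with PM2.5, untreated EpH4-AS spheroids, EpH4 spheroids with PM2.5 and untreated EpH4 spheroids, with 2 libraries each. Spheroids are rounded cell aggregates grown in 3D culture. In the labels EpH4 has the genotype WT and EpH4-AS is given as malignantly transformed, and neither the transforming alteration nor the number of clones is given in the sources used here. Both lines carry 1 and the same batch label, and the dose, the particle source and the length of the exposure are not given in the labels used here. Whether replicate libraries stem from separate cultures is not stated, and the spread behind the p values may therefore be technical.

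PM2.5 is fine airborne particulate matter, a mixture of soot, metals, salts and organic compounds that cells take up. Its known routes into gene expression include oxidant stress sensed by the transcription factor NRF2, inflammatory signalling through NF-kB, and the aryl hydrocarbon receptor. Cells under nutrient or protein-folding stress slow the start of translation and make the transcription factor ATF4, which turns on amino acid supply genes. The unfolded protein response of the endoplasmic reticulum raises chaperones alongside it. Proliferating cells express the mitotic genes in a burst before division, so that their level in bulk RNA follows the share of cells that divide.

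Total counts per library lay between 15393256 and 27765982, lower in the 4 EpH4-AS libraries than in the 4 EpH4 libraries. Levels are TMM-normalised CPM, the counts of a gene scaled to a common library total. The libraries of EpH4-AS were closer to each other, with a biological coefficient of variation of 2.76% when that line was fitted alone and 5.86% in EpH4. The labelled epithelial type went against its markers. Of 17 epithelial markers 6 had enough reads to be tested, with a summed level of 7.9 to 14.7 CPM over the 8 libraries. Krt19 and Cldn4 had 0 counts in every library, and Cdh1, the epithelial cadherin, had 2 counts over exposed and 1 over untreated EpH4-AS libraries, and 3 over exposed and 7 over untreated EpH4 libraries. Of 16 mesenchymal markers 15 were tested, with a summed level of 6998 to 7969 CPM in EpH4-AS and 15237 to 17387 CPM in EpH4. Most of that sum came from Vim and Fn1, with 152922 and 78377 counts over exposed EpH4-AS and 117177 and 515293 over exposed EpH4 libraries. Other members were low. Col1a1 had 4 counts over exposed and 3 over untreated EpH4-AS libraries, and Thy1 had 0 in EpH4-AS. In bulk RNA, a smaller number of cells of a type and less of a transcript per cell cannot be told apart.

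The interaction was positive for 1042 genes (7.6% of those tested) and negative for 890 (6.49%), together 14.1%. At an unadjusted p under 0.05 there were 3868 genes. The median interaction over all tested genes was 0.01 on the log2 scale and its median standard error was 0.13. Only 239 genes (1.74%) had an interaction beyond 2-fold, 88 of them positive and 151 negative. With counts scaled to library totals alone, the split was 838 positive and 1100 negative, and the median of all tested genes was -0.03 on the log2 scale. The 1932 genes fell into 5 kinds according to the tests within each line. In the tests of PM2.5 within each line, 1529 genes were called in EpH4-AS (11.1%, with 6.39% up and 4.75% down). In EpH4 3726 were called (27.2%, with 14.3% up and 12.9% down). Counts of rises and falls in the gene groups below are to be read against these shares. The lines shared an estimate of spread in these tests. Fitted alone, they had a biological coefficient of variation of 2.76% (EpH4-AS) and 5.86% (EpH4). The EpH4 libraries also held more counts. The part of these differences in the larger number called in EpH4 was not tested.

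The largest kind, with 1107 genes (8.07% of those tested), was called in EpH4 and not in EpH4-AS, and 578 of these (4.21%) rose and 529 (3.86%) fell in EpH4. Their median change in size was 0.40 on the log2 scale in EpH4 and 0.10 in EpH4-AS. Absence of a call does not mean absence of change, and in 837 of them the fitted changes had opposite signs in the lines. A further 413 genes (3.01%) were called in EpH4-AS and not in EpH4, of which 266 (1.94%) rose and 147 (1.07%) fell. Genes called in both lines in opposite directions numbered 217 (1.58%). Of these, 134 (0.977%) rose in EpH4-AS and fell in EpH4, and 83 (0.605%) fell in EpH4-AS and rose in EpH4. The opposite changes were of moderate size, with a median of 0.30 on the log2 scale in each line, and 28 of the 217 differed by more than 2-fold between lines. In 216 of the 217 the libraries with PM2.5 lay apart from the untreated libraries in both lines, which was so for 35.7% of all tested genes (57.5% in EpH4-AS and 61% in EpH4, each taken alone). Since both line effects had to pass for these 217, that separation follows largely from how they were chosen. It was also so for 718 of the 1107 genes called in EpH4 only and 221 of the 413 called in EpH4-AS only. Another 51 genes (0.372%) moved the same way in both lines to a different extent, 44 up and 7 down. The remaining 144 had a called interaction while neither line passed alone.

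**Figure D1:**
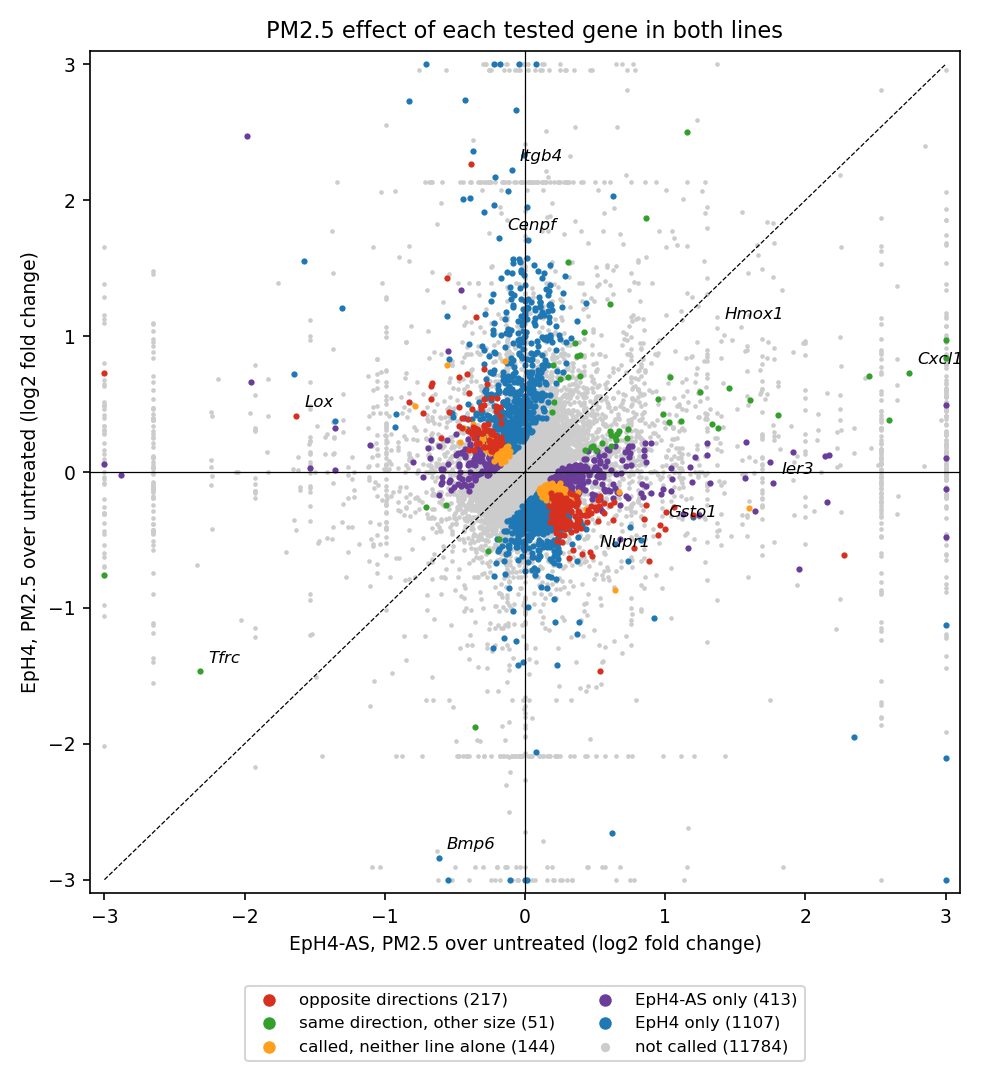
Log2 fold change with PM2.5 in EpH4-AS (horizontal axis) against that in EpH4 (vertical axis) for the 13716 tested genes, 1 point per gene, with values beyond 3 drawn at the edge. Line-dependent genes lie away from the dashed line of equal change: the 1107 genes called in EpH4 only spread along the vertical axis, the 413 called in EpH4-AS only along the horizontal axis, and the 217 that moved in opposite directions fill the upper left and lower right fields.

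Fewer genes were called when any 1 library of EpH4-AS was left out. The lines shared 1 estimate of spread and EpH4-AS varied less than EpH4. Leaving out a library therefore also changes that estimate, and its part in these counts and in the calls lost below was not tested. Without untreated EpH4-AS replicate 1 there were 875 genes with a called interaction and 43 in opposite directions, and without replicate 2 there were 884 and 38. Leaving out either EpH4-AS library with PM2.5 gave 1141 and 1246 called genes, with 72 in opposite directions each time. Without untreated EpH4 replicate 1, 2621 were called and 352 were opposite. Genes called in EpH4-AS only numbered 107 and 115 without untreated EpH4-AS replicates 1 and 2, and 202 and 149 without EpH4-AS replicates 1 and 2 with PM2.5. Genes called in EpH4 only numbered 606 and 620 without untreated EpH4-AS replicates 1 and 2, 733 without EpH4-AS with PM2.5 replicate 1, 615 without EpH4 with PM2.5 replicate 2 and 673 without untreated EpH4 replicate 2. The 51 genes that moved the same way numbered 13 and 19 without untreated EpH4-AS replicates 1 and 2, 31 and 23 without the exposed ones, and 99 without untreated EpH4 replicate 1.

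Line dependence was unevenly spread over 36 gene groups. The groups were chosen with earlier results of these data known, and 6 of them after the results had been seen. High shares may follow in part from that choice, so they are a description and not a test. Against 14.1% of all tested genes, the interaction was called for 29 of 30 measured G2 and mitosis genes (96.7%), 72 of 79 cytosolic ribosomal protein genes (91.1%), 20 of 25 ATF4 stress response genes (80.0%) and 14 of 19 endoplasmic reticulum chaperones (73.7%). It was also called for 13 of 20 aminoacyl-tRNA synthetases (65.0%) and 11 of 17 NF-kB feedback genes and regulators (64.7%). At the other end were 0 of 19 heat shock chaperones at adjusted p under 0.05, 2 of 28 lysosomal genes (7.14%) and 3 of 33 nuclear-encoded respiratory chain subunits (9.09%). Of the heat shock chaperones 7 had an unadjusted p under 0.05 (6 positive and 1 negative), and DESeq2 called 0 and limma on RPKM 1, a negative one. By edgeR 2 were called without untreated EpH4 replicate 1 or EpH4 with PM2.5 replicate 1 and 1 without replicate 2 with PM2.5. For the mitotic, replication, NF-kB feedback, chaperone, synthetase, translation factor, translocation, hypoxia, mitochondrially encoded, ribosomal protein, collagen and sterol groups, the sign with 0 called interactions by edgeR also had 0 by DESeq2 and by limma on RPKM. At an unadjusted p under 0.05 that sign had 1 member among the hypoxia genes, 2 among the translocation genes and 0 in the other groups just named. Among integrins and laminins there were 2 positive interactions at an unadjusted p under 0.05, among proteasome subunits 1 negative and among mesenchymal markers 1 positive, and the other tools' calls were not counted for these lists.

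**Figure D2:**
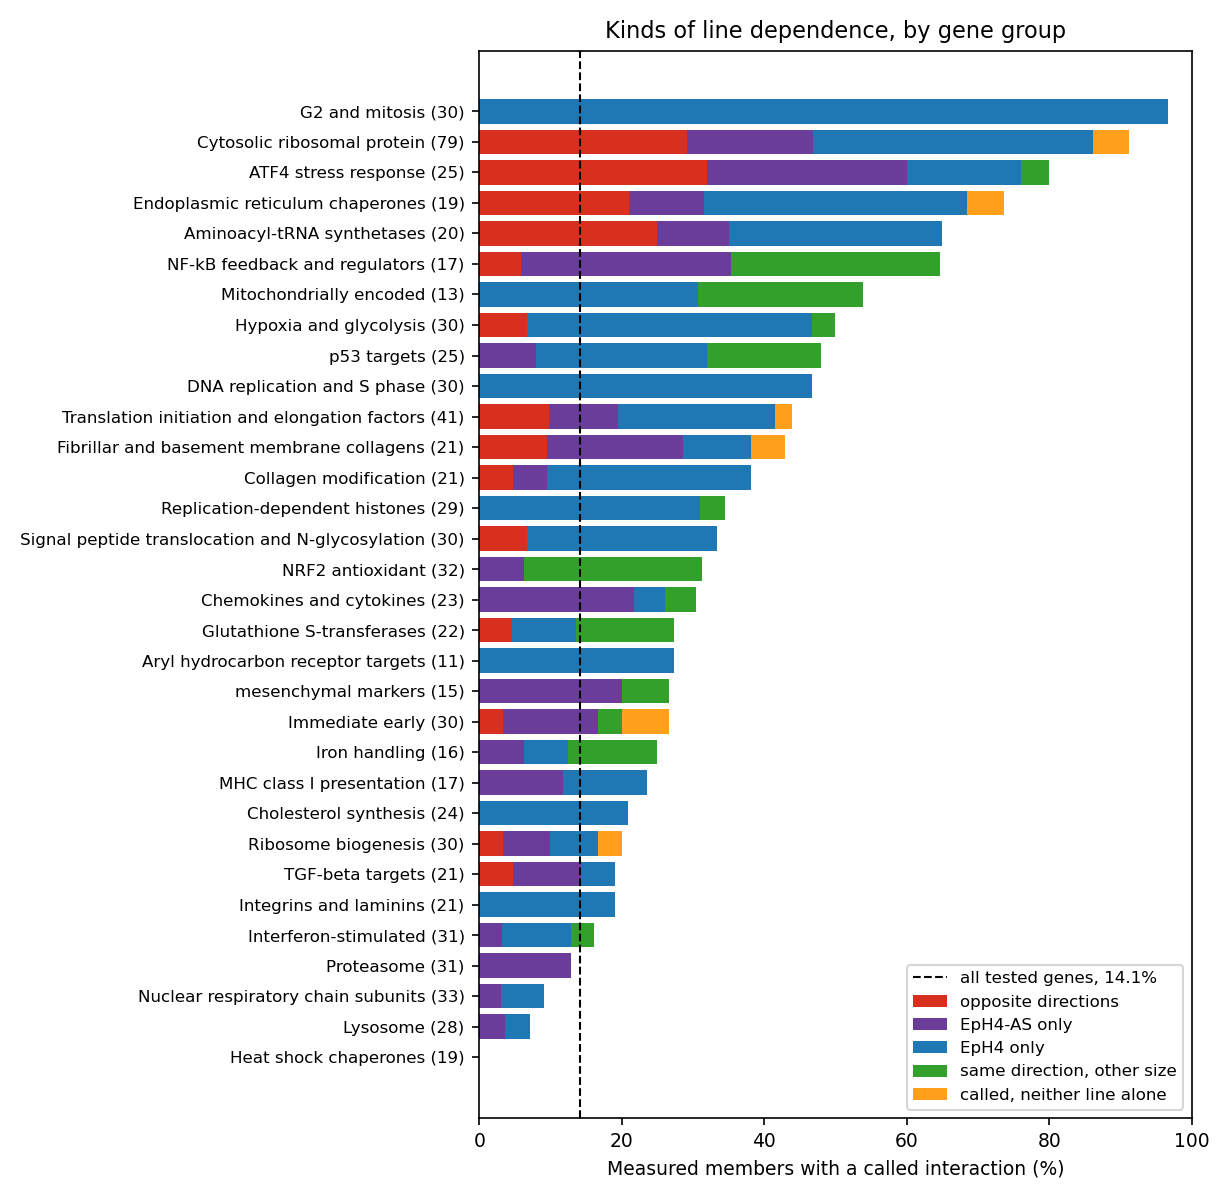
Share of measured members (percent, horizontal axis) with a called interaction in each gene group with at least 10 measured members, coloured by kind, with the number measured in brackets. The dashed line is the 14.1% of all tested genes; mitotic genes were nearly all of the EpH4-only kind, while ribosomal protein and ATF4 genes held the largest shares of opposite directions.

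The genes of the ATF4 stress response rose in EpH4-AS and for the larger part fell or did not pass in EpH4. Of 25 measured members, 17 rose and 0 fell in EpH4-AS (6.39% of all tested genes rose), while 2 rose and 11 fell in EpH4 (14.3% of all tested genes rose and 12.9% fell). The interaction was positive for 19 members and negative for 1, Stc2, against 7.6% positive among all tested genes. Of these, 8 were opposite, 7 were called in EpH4-AS only, 4 in EpH4 only and 1 in the same direction. The members' median change was 0.38 on the log2 scale in EpH4-AS and -0.11 in EpH4.

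Nupr1, a small stress-induced chromatin protein (ENSMUSG00000030717, GRCm39 chromosome 7, bases 126222421 to 126230033 on the minus strand), had 44.5 and 42.3 CPM in EpH4-AS with PM2.5, against 31.3 and 31.1 CPM in untreated EpH4-AS. It had 99.3 and 88 CPM in EpH4 with PM2.5, against 136 and 151 CPM in untreated EpH4. Exposed libraries thus lay above untreated ones in EpH4-AS and below them in EpH4, with no overlap in either line. The log2 interaction was 1.09 ± 0.11 (SE, adjusted p = 3.83e-05). Ddit3, which encodes the stress transcription factor CHOP and is listed in the file as Ddit3_1, was at 83.9 and 81.8 CPM in EpH4-AS with PM2.5, against 64.3 and 60.8 CPM in untreated EpH4-AS. Its levels were 236 and 205 CPM in EpH4 with PM2.5, against 328 and 345 CPM in untreated EpH4. CHOP transcripts were higher in EpH4 than in EpH4-AS throughout, and PM2.5 narrowed that distance from both sides, with an interaction of 1.01 ± 0.10 (adjusted p = 3.21e-05).

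Mthfd2, the mitochondrial folate enzyme that ATF4 induces, showed 189 and 193 CPM in EpH4-AS with PM2.5, against 131 and 128 CPM in untreated EpH4-AS. In the other line it showed 115 and 105 CPM in EpH4 with PM2.5, against 126 and 132 CPM in untreated EpH4. The interaction of 0.79 ± 0.08 (adjusted p = 4.45e-05) parted the lines, whose untreated libraries overlapped while those of EpH4-AS with PM2.5 lay above those of EpH4 with PM2.5. Chac1, a glutathione-degrading enzyme, had 25.9 and 26 CPM in EpH4-AS with PM2.5, against 17.3 and 16.3 CPM in untreated EpH4-AS. It had 71.9 and 60.7 CPM in EpH4 with PM2.5, against 84.3 and 84.9 CPM in untreated EpH4, and its interaction was 0.98 ± 0.12 (adjusted p = 0.000178). Atf4 itself, singled out after its values were seen, had a log2 change of 0.13 in EpH4-AS (adjusted p = 0.231) and of -0.46 in EpH4 (adjusted p = 0.000147). Without untreated EpH4-AS replicate 1 or 2, 10 and 9 of the 17 rises in EpH4-AS were called and 5 genes were opposite in each case. Without EpH4 with PM2.5 replicate 2, 5 were opposite.

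The promoters of Nupr1 and Chac1 are shown because both genes moved in opposite directions and both hold the letters of the amino acid response element that ATF4 binds with a C/EBP partner. The element was searched as TGATGNAA on both strands, in 250 bases before to 50 after each gene's start in the RefSeq promoter table on GRCm38.p6, where 10200 of the tested genes were found by symbol. It was in 6 of 21 matched ATF4 genes (28.6%) and in 2.41% of all matched promoters. This motif was chosen after the data had been seen. The stretches are chr7:126625421-126625720 (- strand) for Nupr1 and chr2:119350992-119351291 (+ strand) for Chac1, written 5′ to 3′ along the gene, with the match in capitals as it reads on that strand.
Nupr1 promoter: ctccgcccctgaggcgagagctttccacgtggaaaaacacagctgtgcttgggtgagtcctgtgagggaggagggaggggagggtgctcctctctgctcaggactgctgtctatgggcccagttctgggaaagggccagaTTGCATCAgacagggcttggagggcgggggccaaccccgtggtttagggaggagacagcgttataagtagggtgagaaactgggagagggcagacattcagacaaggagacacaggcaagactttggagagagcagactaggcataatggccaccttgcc
Chac1 promoter: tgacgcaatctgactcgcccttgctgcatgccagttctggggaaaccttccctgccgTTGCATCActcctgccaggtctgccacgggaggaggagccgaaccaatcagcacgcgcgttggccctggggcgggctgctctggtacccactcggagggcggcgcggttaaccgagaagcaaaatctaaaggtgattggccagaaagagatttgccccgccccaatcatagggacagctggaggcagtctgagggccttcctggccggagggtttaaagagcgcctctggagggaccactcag

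Chaperones and folding enzymes of the endoplasmic reticulum moved apart in the same sense as the ATF4 genes. Of 19 measured, 14 had a positive interaction and 0 a negative one. In EpH4-AS 8 rose and 0 fell (6.39% and 4.75% of all tested genes), and in EpH4 1 rose and 12 fell (14.3% and 12.9%). Hspa5, which encodes the lumenal chaperone BiP, reached 12498 and 10763 CPM in EpH4-AS with PM2.5, against 9286 and 8705 CPM in untreated EpH4-AS. In EpH4 it stood at 3975 and 3342 CPM in EpH4 with PM2.5, against 4547 and 4903 CPM in untreated EpH4. BiP transcripts were thus highest in exposed EpH4-AS and lowest in exposed EpH4, with no overlap in either line, and the interaction was 0.74 ± 0.13 (adjusted p = 0.00203).

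Calr, the calcium-binding lectin chaperone calreticulin, had 5243 and 4907 CPM in EpH4-AS with PM2.5, against 4203 and 3966 CPM in untreated EpH4-AS. It had 1566 and 1449.9 CPM in EpH4 with PM2.5, against 1702 and 1786 CPM in untreated EpH4, with an interaction of 0.52 ± 0.09 (adjusted p = 0.00231). Herpud1, a component of the degradation machinery of the endoplasmic reticulum, had an interaction of 0.78 ± 0.10 (adjusted p = 0.000214) and was also opposite. For Dnajb9, a BiP co-chaperone, the change was called in EpH4 only. Its levels were 35.7 and 32.9 CPM in EpH4-AS with PM2.5, against 33.1 and 28.4 CPM in untreated EpH4-AS. They were 77.7 and 64.6 CPM in EpH4 with PM2.5, against 127 and 130.1 CPM in untreated EpH4, so that the untreated EpH4 libraries stood far above the exposed ones. Without untreated EpH4-AS replicate 2 the interaction was called for 5 of the 19, without untreated replicate 1 for 9, without EpH4-AS with PM2.5 replicate 1 for 8, and without EpH4 with PM2.5 replicate 2 for 9. The 8 rises in EpH4-AS were 2 without untreated replicate 1 or replicate 1 with PM2.5 and 0 without untreated replicate 2. The 12 falls in EpH4 were 5 without EpH4 with PM2.5 replicate 2, 6 without untreated EpH4 replicate 2 and 7 without either untreated EpH4-AS library.

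The promoters of Hspa5 and Calr are printed because they carry the endoplasmic reticulum stress element, the composite site of the unfolded protein response, in full. Searched on both strands as CCAAT and CCACG with 9 bases of any kind between them, it was in 8 of 17 matched chaperone promoters (47.1%) and in 0.137% of all matched promoters, and it too was chosen after the data had been seen. It overlaps the CCAAT box by construction. On GRCm38.p6 the stretches are chr2:34771840-34772139 (+ strand) for Hspa5 and chr8:84846882-84847181 (- strand) for Calr, with the element in capitals.
Hspa5 promoter: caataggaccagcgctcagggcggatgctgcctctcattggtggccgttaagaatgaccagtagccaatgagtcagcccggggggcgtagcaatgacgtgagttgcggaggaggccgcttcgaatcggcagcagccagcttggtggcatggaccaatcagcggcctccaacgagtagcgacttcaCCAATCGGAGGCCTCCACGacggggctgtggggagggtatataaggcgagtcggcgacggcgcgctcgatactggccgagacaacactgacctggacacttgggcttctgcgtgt
Calr promoter: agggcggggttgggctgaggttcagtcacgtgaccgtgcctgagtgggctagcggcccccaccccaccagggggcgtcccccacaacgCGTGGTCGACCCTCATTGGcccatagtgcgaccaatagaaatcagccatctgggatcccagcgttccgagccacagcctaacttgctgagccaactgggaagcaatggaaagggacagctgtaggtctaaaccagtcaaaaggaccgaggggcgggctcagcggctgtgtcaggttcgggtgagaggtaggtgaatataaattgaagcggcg

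Of 79 measured genes for proteins of the cytosolic ribosome, 38 rose and 0 fell in EpH4-AS, and 0 rose and 54 fell in EpH4. The interaction was positive in 72 and negative in 0 (7.6% and 6.49% of all tested genes), and the fitted value was above 0 in 78 of 79. Among the 72, 23 were opposite, 31 were called in EpH4 only, 14 in EpH4-AS only and 4 in neither line alone. Each change was small, with a median of 0.22 on the log2 scale in EpH4-AS and -0.27 in EpH4.

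Rpl12, a protein of the large subunit, had 281 and 250.0 CPM in EpH4-AS with PM2.5, against 216 and 211 CPM in untreated EpH4-AS. It had 1056 and 1033 CPM in EpH4 with PM2.5, against 1514 and 1724 CPM in untreated EpH4, and the interaction was 0.94 ± 0.10 (adjusted p = 6.89e-05). In both lines its libraries separated by exposure, upward in EpH4-AS and downward in EpH4. Rpl13 had 799.8 and 774 CPM in EpH4-AS with PM2.5, against 609 and 599 CPM in untreated EpH4-AS. It had 1600.3 and 1474 CPM in EpH4 with PM2.5, against 1869.9 and 2058 CPM in untreated EpH4, with an interaction of 0.74 ± 0.09 (adjusted p = 0.000175). Rps27a, which encodes ubiquitin fused to a small-subunit protein, was opposite as well, at 0.76 ± 0.09 (adjusted p = 0.000162).

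Ribosomal protein genes have many near-identical processed copies, so reads may be shared between them and the levels of single genes are uncertain. The number with a called interaction lay between 49 and 76 when any 1 library was left out. The rises in EpH4-AS were less even. They numbered 9 and 8 without untreated EpH4-AS replicates 1 and 2, and 15 and 17 without EpH4-AS with PM2.5 replicates 1 and 2. The opposite genes numbered 4, 3, 7 and 9 in those fits and 44 without untreated EpH4 replicate 1. The falls in EpH4 numbered 34 without EpH4 with PM2.5 replicate 2.

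Aminoacyl-tRNA synthetases, which charge tRNAs with amino acids, had 13 positive and 0 negative interactions among 20 measured, with 7 rises in EpH4-AS and 12 falls in EpH4. Gars1, the glycyl-tRNA synthetase, was at 372 and 369.6 CPM in EpH4-AS with PM2.5, against 330.2 and 318 CPM in untreated EpH4-AS. It was at 374 and 326 CPM in EpH4 with PM2.5, against 530.3 and 570.0 CPM in untreated EpH4, a change called in EpH4 only, with an interaction of 0.85 ± 0.09 (adjusted p = 8.19e-05). Wars1, Yars1 and Aars1, the synthetases for tryptophan, tyrosine and alanine, were opposite, with interactions of 0.66, 0.64 and 0.59 (adjusted p = 0.000179, 0.000187 and 0.000221). The interaction count was 11 to 14 with any 1 library left out, whereas 0 rises in EpH4-AS were called without untreated EpH4-AS replicate 1 or 2 or EpH4-AS with PM2.5 replicate 2, and 4 without replicate 1 with PM2.5. By DESeq2 7 rises were called.

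Among 41 translation initiation and elongation factors 18 interactions were positive and 0 negative, with 9 rises in EpH4-AS, and 2 rises and 16 falls in EpH4. Eef1a1, the elongation factor that brings charged tRNAs to the ribosome, had 5386 and 5548 CPM in EpH4-AS with PM2.5, against 3743 and 3695 CPM in untreated EpH4-AS. It had 13287 and 13429.5 CPM in EpH4 with PM2.5, against 13438 and 13945 CPM in untreated EpH4, and only its rise in EpH4-AS was called (interaction 0.59 ± 0.09, adjusted p = 0.000873). Eif4ebp1, the brake on cap-dependent initiation, was opposite with an interaction of 0.66 ± 0.08 (adjusted p = 0.000214). Npm1, the nucleolar protein nucleophosmin, was opposite too, at 0.77 ± 0.09 (adjusted p = 0.000183), although the ribosome biogenesis group as a whole had 5 positive and 1 negative among 30. Of 30 genes for translocation of signal peptides and N-glycosylation, 10 had a positive interaction and 0 a negative one, and 21 fell in EpH4 (3 rose and 2 fell in EpH4-AS). Sec61a1, the pore of the translocon, had 250.0 and 234 CPM in EpH4-AS with PM2.5, against 214 and 201 CPM in untreated EpH4-AS. It had 373 and 329.8 CPM in EpH4 with PM2.5, against 451 and 474 CPM in untreated EpH4 and was opposite (interaction 0.62 ± 0.09, adjusted p = 0.000598). Without untreated EpH4-AS replicate 2, 10 of the 18 factors were called, and the 10 translocation genes became 5 without either untreated EpH4-AS library or EpH4-AS with PM2.5 replicate 1, and 6 without EpH4 with PM2.5 replicate 2. The 9 rises of factors in EpH4-AS were 3 without either untreated EpH4-AS library and 4 without EpH4-AS with PM2.5 replicate 2, and the 3 rises of translocation genes were 0 without any 1 EpH4-AS library. Without EpH4 with PM2.5 replicate 2 the falls in EpH4 were 9 for each of these groups, and without untreated EpH4 replicate 2 they were 8 for factors and 11 for translocation genes.

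**Figure D3:**
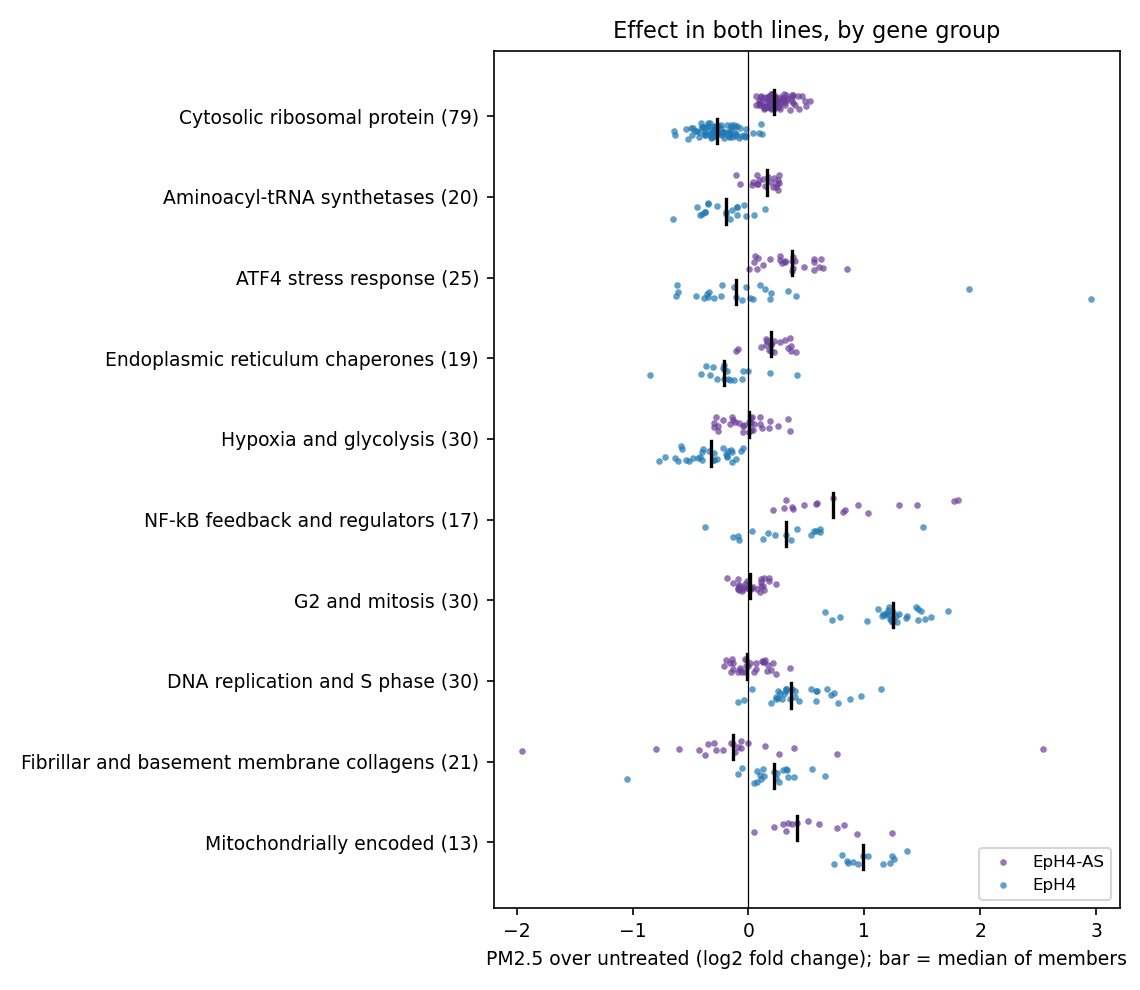
Log2 fold change with PM2.5 of every measured member of 10 gene groups, with EpH4-AS in the upper and EpH4 in the lower strip of each group and the median as a bar. The ribosomal protein genes lay above 0 in EpH4-AS (median 0.22) and mostly below it in EpH4 (median -0.27), and the mitotic genes lay around 0 in EpH4-AS (median 0.01) and well above it in EpH4 (median 1.24).

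Hypoxia targets and glycolytic genes fell in EpH4. Of 30 measured, 0 rose and 22 fell in EpH4 (12.9% of all tested genes fell), while 2 rose and 3 fell in EpH4-AS, and 15 interactions were positive and 0 negative. Slc2a1, the glucose transporter GLUT1, had 862 and 891 CPM in EpH4-AS with PM2.5, against 799 and 750.1 CPM in untreated EpH4-AS. It had 662 and 600.2 CPM in EpH4 with PM2.5, against 944 and 1018 CPM in untreated EpH4, with an interaction of 0.81 ± 0.09 (adjusted p = 8.55e-05). Hk2, the hexokinase that traps glucose in the cell, was opposite, with 198 and 194 CPM in EpH4-AS with PM2.5, against 151 and 155 CPM in untreated EpH4-AS. Its EpH4 levels were 273 and 247 CPM in EpH4 with PM2.5, against 329.6 and 355 CPM in untreated EpH4, and its interaction was 0.75 ± 0.08 (adjusted p = 8.94e-05).

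Ndrg1, a stress protein induced by low oxygen and by iron depletion, stood at 192 and 192 CPM in EpH4-AS with PM2.5, against 175 and 183 CPM in untreated EpH4-AS. It stood at 1819 and 1622 CPM in EpH4 with PM2.5, against 2453 and 2679.8 CPM in untreated EpH4, so its exposed EpH4 libraries lay below the untreated ones while the change in EpH4-AS did not pass (interaction 0.68 ± 0.10, adjusted p = 0.000469). P4ha1, a prolyl hydroxylase needed for stable collagen, had an interaction of 0.77 ± 0.11 (adjusted p = 0.000399) and was called in EpH4 only. Plod1, a collagen lysyl hydroxylase, had 724 and 656 CPM in EpH4-AS with PM2.5, against 611 and 587 CPM in untreated EpH4-AS. It had 323 and 278 CPM in EpH4 with PM2.5, against 562 and 585 CPM in untreated EpH4, with an interaction of 1.14 ± 0.10 (adjusted p = 2.59e-05). Without untreated EpH4-AS replicate 1 or 2, 9 of the 15 hypoxia interactions and 0 of the 3 falls in EpH4-AS were called, and the falls were 0 and 1 without replicates 1 and 2 with PM2.5. The 2 rises in EpH4-AS, like the 2 opposite genes, were 0 without untreated EpH4-AS replicate 1, 1 without untreated EpH4-AS replicate 2 or either EpH4-AS library with PM2.5, and 4 without either untreated EpH4 library.

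Among single genes that rose in EpH4-AS and fell in EpH4, Acox2, a peroxisomal oxidase of bile acid intermediates, had the largest interaction by the naming rule. Its levels were 1.05 and 1.09 CPM in EpH4-AS with PM2.5, against 0.181 and 0.253 CPM in untreated EpH4-AS. They were 17.5 and 13.2 CPM in EpH4 with PM2.5, against 23.5 and 23.7 CPM in untreated EpH4. Acox2 was thus nearly silent in untreated EpH4-AS, and its interaction was 2.89 ± 0.53 (adjusted p = 0.00274). Gsto1, an omega-class glutathione transferase, had 27.4 and 28.9 CPM in EpH4-AS with PM2.5, against 12.9 and 16.1 CPM in untreated EpH4-AS. It had 246 and 212 CPM in EpH4 with PM2.5, against 284 and 318 CPM in untreated EpH4. All exposed EpH4-AS libraries lay above the untreated ones and all exposed EpH4 libraries below, with an interaction of 1.35 ± 0.14 (adjusted p = 6.89e-05).

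Sprr1a, a cornified envelope precursor of stratified epithelia, was the reverse in level, with 17.2 and 17.2 CPM in EpH4-AS with PM2.5, against 12.6 and 11.1 CPM in untreated EpH4-AS. It had 0.495 and 0.616 CPM in EpH4 with PM2.5, against 1.45 and 1.63 CPM in untreated EpH4, and the interaction was 2.0004 ± 0.29 (adjusted p = 0.000572). Tenm4, a teneurin of the cell surface, had 10.2 and 9.77 CPM in EpH4-AS with PM2.5, against 4.7 and 5.63 CPM in untreated EpH4-AS. It had 211 and 178 CPM in EpH4 with PM2.5, against 265 and 271 CPM in untreated EpH4, with an interaction of 1.41 ± 0.17 (adjusted p = 0.000155). Fam171b and Epm2a, which encodes the glycogen phosphatase laforin, followed the same pattern at 1.54 and 1.42 (adjusted p = 0.000315 and 0.00147). For 5 of these 6 genes, Sprr1a being the exception, the level in EpH4-AS was a small part of that in EpH4.

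In the other sense, Lox stood out among genes that fell in EpH4-AS and rose in EpH4. Lox encodes lysyl oxidase, the secreted copper enzyme that crosslinks collagen and elastin. It had 68.6 and 78.1 CPM in EpH4-AS with PM2.5, against 219 and 236 CPM in untreated EpH4-AS. It had 1899 and 1885 CPM in EpH4 with PM2.5, against 1389 and 1450.4 CPM in untreated EpH4. The exposed libraries lay far below the untreated ones in EpH4-AS and above them in EpH4, and the interaction was -2.05 ± 0.09 (adjusted p = 1.53e-08).

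Pltp, the phospholipid transfer protein, had 197 and 203 CPM in EpH4-AS with PM2.5, against 255 and 268 CPM in untreated EpH4-AS. In EpH4 it was barely detected, with 15 counts over the libraries with PM2.5, against 3 over the untreated ones, a ratio of 5.21 with an exact 95% counting interval of 1.47 to 28.1, and its interaction call was lost without EpH4 with PM2.5 replicate 1 or untreated EpH4 replicate 2 (adjusted p between 0.0618 and 0.128). Mpeg1, a pore-forming protein best known from macrophages, had 11.1 and 9.77 CPM in EpH4-AS with PM2.5, against 15.2 and 15.6 CPM in untreated EpH4-AS. It had 0.762 and 1.11 CPM in EpH4 with PM2.5, against 0.291 and 0.398 CPM in untreated EpH4, with an interaction of -1.99 ± 0.38 (adjusted p = 0.00362). Casp1, the inflammatory caspase, had 4.49 and 4.45 CPM in EpH4-AS with PM2.5, against 7.35 and 6.83 CPM in untreated EpH4-AS. Its EpH4 levels were 28.4 and 28.6 CPM in EpH4 with PM2.5, against 20.4 and 15.6 CPM in untreated EpH4, and the interaction was -1.32 ± 0.20 (adjusted p = 0.000812). Both genes separated the exposed from the untreated libraries in each line, downward in EpH4-AS and upward in EpH4.

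Tmem158, a membrane protein first described as induced by oncogenic Ras, had an interaction of -1.50 ± 0.15 (adjusted p = 5.42e-05). Eepd1, an endonuclease-family protein, had -1.34 ± 0.23 (adjusted p = 0.00183), but its untreated EpH4 library 1 lay above 1 exposed library. Thbs1, the matrix glycoprotein thrombospondin 1 and a target of TGF-beta, was opposite too. It had 135 and 119 CPM in EpH4-AS with PM2.5, against 173 and 164 CPM in untreated EpH4-AS. It had 1393 and 1639 CPM in EpH4 with PM2.5, against 1056 and 784 CPM in untreated EpH4, with an interaction of -1.13 ± 0.16 (adjusted p = 0.000491).

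Collagen genes leaned the same way as Lox. Of 21 measured chains, 9 had a negative interaction (6.49% of all tested genes) and 0 a positive one, with 1 rise and 7 falls in EpH4-AS, and 7 rises and 0 falls in EpH4. Col3a1, the chain of type III fibrillar collagen, had 10.4 and 12.9 CPM in EpH4-AS with PM2.5, against 45.3 and 45 CPM in untreated EpH4-AS. It had 1.26 and 1.15 CPM in EpH4 with PM2.5, against 0.982 and 0.517 CPM in untreated EpH4, and the change was called in EpH4-AS only (interaction -2.62 ± 0.33, adjusted p = 0.000233). Col5a2, a chain of type V collagen, was opposite, with 352 and 343 CPM in EpH4-AS with PM2.5, against 451 and 436 CPM in untreated EpH4-AS. It had 178 and 173 CPM in EpH4 with PM2.5, against 157 and 124 CPM in untreated EpH4, and the interaction was -0.68 ± 0.11 (adjusted p = 0.00131). Col6a3 and Col16a1 were called in EpH4-AS only, with interactions of -0.87 and -0.45 (adjusted p = 0.000469 and 0.00133). The 7 falls in EpH4-AS were 4 without either untreated library or replicate 1 with PM2.5, and the 7 rises in EpH4 were 4 without replicate 2 of either EpH4 group. The group's median change was -0.13 in EpH4-AS and 0.22 in EpH4 on the log2 scale. Of 15 tested mesenchymal markers 4 had a negative interaction, Col3a1, Snai1, Dcn and Fn1, with interactions of -2.62, -0.60, -0.47 and -0.32. All but that of Col3a1 were lost without any 1 of the EpH4-AS libraries or EpH4 with PM2.5 replicate 2 (adjusted p between 0.0515 and 0.248).

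NF-kB target genes rose further in EpH4-AS. The group of feedback inhibitors and regulators had 16 rises and 0 falls among 17 in EpH4-AS, 9 rises and 1 fall in EpH4, and 11 positive and 0 negative interactions. NF-kB is held in the cytoplasm by inhibitor proteins and, once released, turns on the genes for those same inhibitors. The median change was 0.73 on the log2 scale in EpH4-AS and 0.32 in EpH4. With any 1 library left out, 8 to 11 interactions were called.

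Nfkbia, which encodes the inhibitor I-kappa-B alpha, had 497 and 505 CPM in EpH4-AS with PM2.5, against 181 and 184 CPM in untreated EpH4-AS. It had 142 and 131 CPM in EpH4 with PM2.5, against 91.6 and 86.4 CPM in untreated EpH4. The gene rose in both lines without overlap, and the interaction of 0.84 ± 0.08 (adjusted p = 3.08e-05) measured the further rise in EpH4-AS. Tnfaip3, the ubiquitin-editing inhibitor A20, did likewise, with 143 and 144 CPM in EpH4-AS with PM2.5, against 72.9 and 67.9 CPM in untreated EpH4-AS. It had 119 and 117 CPM in EpH4 with PM2.5, against 89 and 94.3 CPM in untreated EpH4 (interaction 0.66 ± 0.08, adjusted p = 0.000148). Irf1, an interferon regulatory factor that NF-kB also drives, had 160.2 and 172 CPM in EpH4-AS with PM2.5, against 63.8 and 64.4 CPM in untreated EpH4-AS. It had 99.9 and 97.2 CPM in EpH4 with PM2.5, against 73.1 and 84.9 CPM in untreated EpH4, and the interaction was 1.05 ± 0.10 (adjusted p = 3.08e-05).

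Ier3, an early-response survival gene (ENSMUSG00000003541, GRCm39 chromosome 17, bases 36132576 to 36133815 on the plus strand), was called in EpH4-AS only. Its levels were 514 and 554 CPM in EpH4-AS with PM2.5, against 156 and 157 CPM in untreated EpH4-AS. They were 605 and 565 CPM in EpH4 with PM2.5, against 605 and 629.7 CPM in untreated EpH4. Exposed EpH4-AS thereby came near the level that EpH4 held in both conditions, and the interaction was 1.85 ± 0.08 (adjusted p = 1.31e-08). Nfkbiz, a nuclear I-kappa-B protein that co-activates secondary targets, showed the same with 30.6 and 35.6 CPM in EpH4-AS with PM2.5, against 13.4 and 13.5 CPM in untreated EpH4-AS. It had 113 and 118 CPM in EpH4 with PM2.5, against 105 and 106 CPM in untreated EpH4 (interaction 1.18 ± 0.11, adjusted p = 2.97e-05).

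Secreted products of the pathway were less uniform. Of 23 measured chemokines, cytokines and related secreted factors, 6 had a positive and 1 a negative interaction, with 8 rises and 1 fall in EpH4-AS, and 11 rises and 1 fall in EpH4. Cxcl1, a neutrophil-attracting chemokine, had 127 and 142 CPM in EpH4-AS with PM2.5, against 19 and 21.2 CPM in untreated EpH4-AS. It had 387 and 377 CPM in EpH4 with PM2.5, against 209 and 252 CPM in untreated EpH4. It rose in both lines without overlap, from a far lower untreated level in EpH4-AS, and the log2 interaction was 2.01 ± 0.13 (adjusted p = 8.4e-07). In plain CPM the rise was larger in EpH4. Mean levels went from 20.1 to 134 CPM in EpH4-AS and from 230 to 382 CPM in EpH4.

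Lif, the IL-6 family cytokine, had 93.5 and 106 CPM in EpH4-AS with PM2.5, against 42.4 and 44.1 CPM in untreated EpH4-AS. It had 295 and 339 CPM in EpH4 with PM2.5, against 284 and 303 CPM in untreated EpH4, a change called in EpH4-AS only (interaction 1.10 ± 0.11, adjusted p = 4.44e-05). Csf1, the macrophage growth factor, had 169 and 172 CPM in EpH4-AS with PM2.5, against 112 and 114 CPM in untreated EpH4-AS. It had 754 and 759.7 CPM in EpH4 with PM2.5, against 812 and 848 CPM in untreated EpH4, with an interaction of 0.72 ± 0.07 (adjusted p = 4.72e-05). Lcn2, a siderophore-binding acute-phase protein, had 42.5 and 52 CPM in EpH4-AS with PM2.5, against 17 and 20.9 CPM in untreated EpH4-AS. It had 1685 and 1766 CPM in EpH4 with PM2.5, against 1957 and 1685 CPM in untreated EpH4 (interaction 1.40 ± 0.15, adjusted p = 8.17e-05). For each of Lif, Csf1 and Lcn2 the EpH4 level was several times that of EpH4-AS with or without PM2.5. Il6 was at 0.0584 and 0.434 CPM in EpH4-AS with PM2.5, against 0.361 and 0.379 CPM in untreated EpH4-AS. It was at 10.7 and 14.2 CPM in EpH4 with PM2.5, against 7.92 and 6.01 CPM in untreated EpH4, and its interaction of -1.37 ± 0.84 did not pass (adjusted p = 0.315).

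The promoters of Nfkbia and Cxcl1 are shown because both genes changed in both lines and by different amounts, and both hold a kappa-B site, the sequence NF-kB dimers bind, close to the start. The kappa-B motif was searched by its usual consensus on both strands in the same windows and was in 9 of 14 matched promoters of the feedback group (64.3%), in 6 of 15 of the secreted factors (40%) and in 7.97% of all matched promoters. On GRCm38.p6 the stretches are chr12:55492598-55492897 (- strand) for Nfkbia and chr5:90890995-90891294 (+ strand) for Cxcl1, with the matched letters in capitals, which in Cxcl1 are overlapping matches on both strands.
Nfkbia promoter: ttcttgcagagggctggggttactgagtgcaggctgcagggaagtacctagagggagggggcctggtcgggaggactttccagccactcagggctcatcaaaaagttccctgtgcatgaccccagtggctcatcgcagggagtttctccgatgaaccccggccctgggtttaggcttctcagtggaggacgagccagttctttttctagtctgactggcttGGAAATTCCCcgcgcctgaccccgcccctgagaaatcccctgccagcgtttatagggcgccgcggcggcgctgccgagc
Cxcl1 promoter: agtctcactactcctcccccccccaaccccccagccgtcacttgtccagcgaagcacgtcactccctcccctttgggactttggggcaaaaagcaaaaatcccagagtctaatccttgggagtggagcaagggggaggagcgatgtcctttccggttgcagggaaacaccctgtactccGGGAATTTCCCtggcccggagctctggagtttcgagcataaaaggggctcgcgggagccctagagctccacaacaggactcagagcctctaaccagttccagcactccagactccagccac

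Other genes called in EpH4-AS only were varied. Sqstm1, the selective autophagy receptor p62, had 410.2 and 432 CPM in EpH4-AS with PM2.5, against 226 and 238 CPM in untreated EpH4-AS. It had 1437 and 1361 CPM in EpH4 with PM2.5, against 1456 and 1545 CPM in untreated EpH4, with an interaction of 0.96 ± 0.08 (adjusted p = 2.59e-05). Gadd45a, a growth-arrest gene, had 431 and 411 CPM in EpH4-AS with PM2.5, against 219.9 and 210.2 CPM in untreated EpH4-AS. It had 202 and 173 CPM in EpH4 with PM2.5, against 189 and 231 CPM in untreated EpH4 (interaction 1.13 ± 0.12, adjusted p = 6.89e-05). Both genes separated exposed from untreated libraries in EpH4-AS and their libraries overlapped in EpH4 only for Gadd45a.

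Zfp36, which destabilises cytokine mRNAs, had an interaction of 0.68 ± 0.11 (adjusted p = 0.000885). Fosl2, an AP-1 subunit, had a fall called in EpH4-AS only, with an interaction of -0.51 ± 0.07 (adjusted p = 0.000446). The immediate early group as a whole had 6 positive and 2 negative interactions among 30, the 2 being 1 without any 1 library. Clip4, a microtubule-binding protein, fell in EpH4-AS, with 2.8 and 2.44 CPM in EpH4-AS with PM2.5, against 6.74 and 6.64 CPM in untreated EpH4-AS. It had 16.9 and 19.2 CPM in EpH4 with PM2.5, against 16.1 and 12.6 CPM in untreated EpH4 (interaction -1.67 ± 0.23, adjusted p = 0.000403). Fabp4, a fatty acid carrier of adipocytes, fell in EpH4-AS with 5.84 and 4.83 CPM in EpH4-AS with PM2.5, against 16.9 and 13.9 CPM in untreated EpH4-AS. It had 0.724 and 0.904 CPM in EpH4 with PM2.5, against 1.05 and 0.517 CPM in untreated EpH4 (interaction -1.56 ± 0.42, adjusted p = 0.0237), and the call was lost without EpH4-AS with PM2.5 replicate 2, untreated EpH4-AS replicate 1, EpH4 with PM2.5 replicate 2 or untreated EpH4 replicate 2 (adjusted p between 0.0676 and 0.122). The summed level of 5 tested adipocyte markers of 8 was 1165 to 1175 CPM in EpH4-AS with PM2.5, against 1432 to 1472 CPM in untreated EpH4-AS. That sum was lower with PM2.5 in EpH4 too, at 141 and 145 CPM, against 171 and 166 CPM in untreated EpH4. Adipoq had 1 count and Lep 0 over all 8 libraries.

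Further genes named by the rule rested on few reads. Stard5, a sterol carrier, and Gask1b, a Golgi protein, had interactions of 1.61 and -1.44 (adjusted p = 0.00436 and 0.0156). The first was lost without untreated EpH4-AS replicate 1 (adjusted p = 0.0502), and the second without untreated EpH4-AS replicate 2 or untreated EpH4 replicate 2 (adjusted p between 0.0614 and 0.0677). Fhl1, a LIM-domain protein, fell in EpH4-AS and was under 1 CPM in EpH4 (interaction -1.79, adjusted p = 0.0407), and its call was lost without EpH4-AS with PM2.5 replicate 1 or 2, untreated EpH4-AS replicate 1 or 2, EpH4 with PM2.5 replicate 1 or 2 or untreated EpH4 replicate 1 (adjusted p between 0.0515 and 0.212). Zan had 11 counts over the exposed EpH4-AS libraries and 0 over the untreated ones, at least 3.34-fold higher against a floor of 3 counts over the group, and its interaction call was lost without EpH4-AS with PM2.5 replicate 1 or 2, untreated EpH4-AS replicate 1 or 2 or EpH4 with PM2.5 replicate 2 (adjusted p between 0.0563 and 0.134). Snhg4, Srp54c and Fam177a had interactions of 2.05, 1.56 and -2.86 (adjusted p = 0.0375, 0.00318 and 0.0145), and the last pair have near-identical relatives, so that their counts are uncertain. The call of Snhg4 was lost without EpH4-AS with PM2.5 replicate 2, untreated EpH4-AS replicate 1 or 2 or EpH4 with PM2.5 replicate 2 (adjusted p between 0.0511 and 0.258), that of Fam177a without EpH4-AS with PM2.5 replicate 1 or untreated EpH4-AS replicate 1 (adjusted p between 0.0793 and 0.22), and that of Srp54c by DESeq2.

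Mitotic genes were called in 1 line only. All 30 measured genes of G2 and mitosis rose in EpH4 (14.3% of all tested genes) and 0 were called in EpH4-AS, and 29 had a negative interaction (6.49% of all tested genes). Their log2 change in EpH4 ran between 0.66 and 1.72 with a median of 1.24, whereas in EpH4-AS it ran between -0.19 and 0.23 with a median of 0.01. With any 1 library left out, 29 or 30 were called.

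Cenpf, a kinetochore protein of dividing cells (ENSMUSG00000026605, GRCm39 chromosome 1, bases 189372803 to 189420283 on the minus strand), had 91.7 and 93.9 CPM in EpH4-AS with PM2.5, against 111 and 101 CPM in untreated EpH4-AS. It had 30.4 and 30.5 CPM in EpH4 with PM2.5, against 11.5 and 6.84 CPM in untreated EpH4. Exposed EpH4 thus lay clear above untreated EpH4 and still far below EpH4-AS, and the interaction was -1.91 ± 0.18 (adjusted p = 3.21e-05). Ube2c, the ubiquitin-conjugating enzyme that marks mitotic cyclins for destruction, had 41.4 and 51.7 CPM in EpH4-AS with PM2.5, against 46.2 and 46 CPM in untreated EpH4-AS. It had 20.3 and 22.2 CPM in EpH4 with PM2.5, against 8 and 6.24 CPM in untreated EpH4, with an interaction of -1.55 ± 0.16 (adjusted p = 6.89e-05). Anln, the cytokinesis scaffold anillin, had 139.8 and 154 CPM in EpH4-AS with PM2.5, against 153 and 159 CPM in untreated EpH4-AS. It had 99 and 99.8 CPM in EpH4 with PM2.5, against 48.8 and 36.6 CPM in untreated EpH4 (interaction -1.30 ± 0.13, adjusted p = 4.72e-05). Cenpe, the mitotic kinesin of the kinetochore, had an interaction of -1.26 ± 0.16 (adjusted p = 0.000192). In each of these 4 genes the groups of EpH4 did not overlap and EpH4-AS stayed above EpH4 in every library.

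The promoters of Cenpf and Ube2c are shown because such genes share CCAAT boxes and the cell cycle genes homology region, which binds the DREAM complex in resting cells. Searched as TTTGAA on both strands, the latter was in 20 of 26 matched mitotic promoters (76.9%), in 21.8% of those of genes that rose in EpH4 only and in 12.4% of all matched promoters. CCAAT was in 19 of the 26 (73.1%) and in 39.5% of all. On GRCm38.p6 the stretches are chr1:189688037-189688336 (- strand) for Cenpf and chr2:164769679-164769978 (+ strand) for Ube2c, with both motifs in capitals on either strand.
Cenpf promoter: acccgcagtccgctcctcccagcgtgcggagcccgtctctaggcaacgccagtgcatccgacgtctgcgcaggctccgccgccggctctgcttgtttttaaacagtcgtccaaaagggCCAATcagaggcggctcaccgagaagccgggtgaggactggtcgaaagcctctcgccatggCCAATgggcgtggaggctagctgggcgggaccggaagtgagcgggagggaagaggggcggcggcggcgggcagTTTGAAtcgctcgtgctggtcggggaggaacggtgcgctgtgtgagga
Ube2c promoter: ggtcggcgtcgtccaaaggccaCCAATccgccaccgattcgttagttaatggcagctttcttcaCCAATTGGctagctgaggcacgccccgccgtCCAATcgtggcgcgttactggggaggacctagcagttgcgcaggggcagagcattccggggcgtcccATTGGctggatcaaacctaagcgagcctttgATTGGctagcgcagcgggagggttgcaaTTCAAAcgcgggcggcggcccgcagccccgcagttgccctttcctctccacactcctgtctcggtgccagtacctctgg

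DNA replication genes moved less. Of 30 measured, 24 rose in EpH4 and 1 in EpH4-AS, and 14 had a negative interaction, with a median interaction of -0.41 on the log2 scale. Rrm2, the regulated subunit of ribonucleotide reductase, had 46.5 and 54.2 CPM in EpH4-AS with PM2.5, against 52.1 and 50.7 CPM in untreated EpH4-AS. It had 47.6 and 51.9 CPM in EpH4 with PM2.5, against 27.8 and 16.9 CPM in untreated EpH4, with an interaction of -1.17 ± 0.21 (adjusted p = 0.00203). Pole, the catalytic subunit of DNA polymerase epsilon, had -0.80 ± 0.13 (adjusted p = 0.00127). The count was 6 without either untreated EpH4-AS library or EpH4-AS with PM2.5 replicate 1, 7 without EpH4 with PM2.5 replicate 2 and 9 without untreated EpH4 replicate 2. In the last pair of fits 15 and 14 rises in EpH4 were called.

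Histone genes that are used in S phase followed EpH4 as well, with 9 negative and 1 positive interaction among 29 (34.5% called, against 14.1% of all tested genes). The positive one was that of H2ac18, and H4c18, which is not among the 29, was positive too. H2bc4, an H2B gene, had 32.4 and 26.9 CPM in EpH4-AS with PM2.5, against 33.1 and 28.6 CPM in untreated EpH4-AS. It had 11.8 and 10.9 CPM in EpH4 with PM2.5, against 1.71 and 1.87 CPM in untreated EpH4 (interaction -2.73 ± 0.20, adjusted p = 3.63e-06). H1f2, a linker histone, had 27.9 and 23 CPM in EpH4-AS with PM2.5, against 23.8 and 22.8 CPM in untreated EpH4-AS. It had 55.2 and 46.7 CPM in EpH4 with PM2.5, against 19.9 and 17.9 CPM in untreated EpH4, and the interaction was -1.30 ± 0.15 (adjusted p = 0.000123). H2bc7 had -2.73 ± 0.87 (adjusted p = 0.0499), a call lost without EpH4-AS with PM2.5 replicate 1 or 2, untreated EpH4-AS replicate 1 or 2, EpH4 with PM2.5 replicate 1 or 2 or untreated EpH4 replicate 1 (adjusted p between 0.0503 and 0.161). Most histone mRNAs carry no poly(A) tail and the libraries were made from polyadenylated RNA, and the genes are near-identical copies, so these levels are uncertain. Without EpH4 with PM2.5 replicate 1 or untreated EpH4-AS replicate 1, 4 of the 9 were called, and 5 without untreated EpH4-AS replicate 2 or EpH4-AS with PM2.5 replicate 1.

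The p53 targets were not uniform between the lines. Among 25, 16 rose and 2 fell in EpH4, 6 rose in EpH4-AS, and 7 interactions were positive and 5 negative (48.0% called, against 14.1% of all tested genes). Of the 12 with a called interaction, 6 were called in EpH4 only and 2 in EpH4-AS only, and 4 rose in both lines to a different extent. Mdm2, the ubiquitin ligase that limits p53, had 60.2 and 61.2 CPM in EpH4-AS with PM2.5, against 60.7 and 64.4 CPM in untreated EpH4-AS. It had 292 and 286 CPM in EpH4 with PM2.5, against 199 and 202 CPM in untreated EpH4, with an interaction of -0.57 ± 0.07 (adjusted p = 0.000263). Ccng1, cyclin G1, had 58.8 and 58.6 CPM in EpH4-AS with PM2.5, against 54.8 and 57.7 CPM in untreated EpH4-AS. It had 617 and 642 CPM in EpH4 with PM2.5, against 399 and 425 CPM in untreated EpH4 (interaction -0.55 ± 0.08, adjusted p = 0.000589). Phlda3, an inhibitor of AKT, had -0.57 ± 0.08 (adjusted p = 0.000554). These genes rose in EpH4 without overlap and did not pass in EpH4-AS, while Gadd45a of the same group rose in EpH4-AS. The 7 positive calls were 3 without untreated EpH4-AS replicate 1 or 2, and 4 without untreated EpH4 replicate 2, EpH4 with PM2.5 replicate 2 or either exposed EpH4-AS library.

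Itgb4, the integrin beta 4 chain of hemidesmosomes (ENSMUSG00000020758, GRCm39 chromosome 11, bases 115865535 to 115899238 on the plus strand), was called in EpH4 only and had one of the smallest p values of the contrast. It had 37.3 and 36.1 CPM in EpH4-AS with PM2.5, against 38.5 and 39.9 CPM in untreated EpH4-AS. It had 63.2 and 64.4 CPM in EpH4 with PM2.5, against 14.3 and 12.9 CPM in untreated EpH4. The EpH4 libraries thus lay above those of EpH4-AS with PM2.5 and below them untreated, with an interaction of -2.32 ± 0.10 (adjusted p = 1.31e-08). Lama5, a chain of its laminin ligands, had an interaction of -0.67 ± 0.08 (adjusted p = 0.000178). Lamb1 and Lamc1 had -0.39 and -0.29 (adjusted p = 0.0201 and 0.03), of which the first was lost without EpH4-AS with PM2.5 replicate 1 or 2, untreated EpH4-AS replicate 1 or 2 or EpH4 with PM2.5 replicate 2 (adjusted p between 0.0718 and 0.124) and the second without EpH4-AS with PM2.5 replicate 1 or 2, untreated EpH4-AS replicate 1 or 2 or EpH4 with PM2.5 replicate 2 (adjusted p between 0.109 and 0.191). Of 21 integrin and laminin genes 4 had a negative and 0 a positive interaction (14.1% of all tested genes were called, 6.49% as negative). The 4 include Lamb1 and Lamc1, whose calls were lost in the fits just named. At an unadjusted p under 0.05 by edgeR, 5 were negative and 2 positive.

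**Figure D4:**
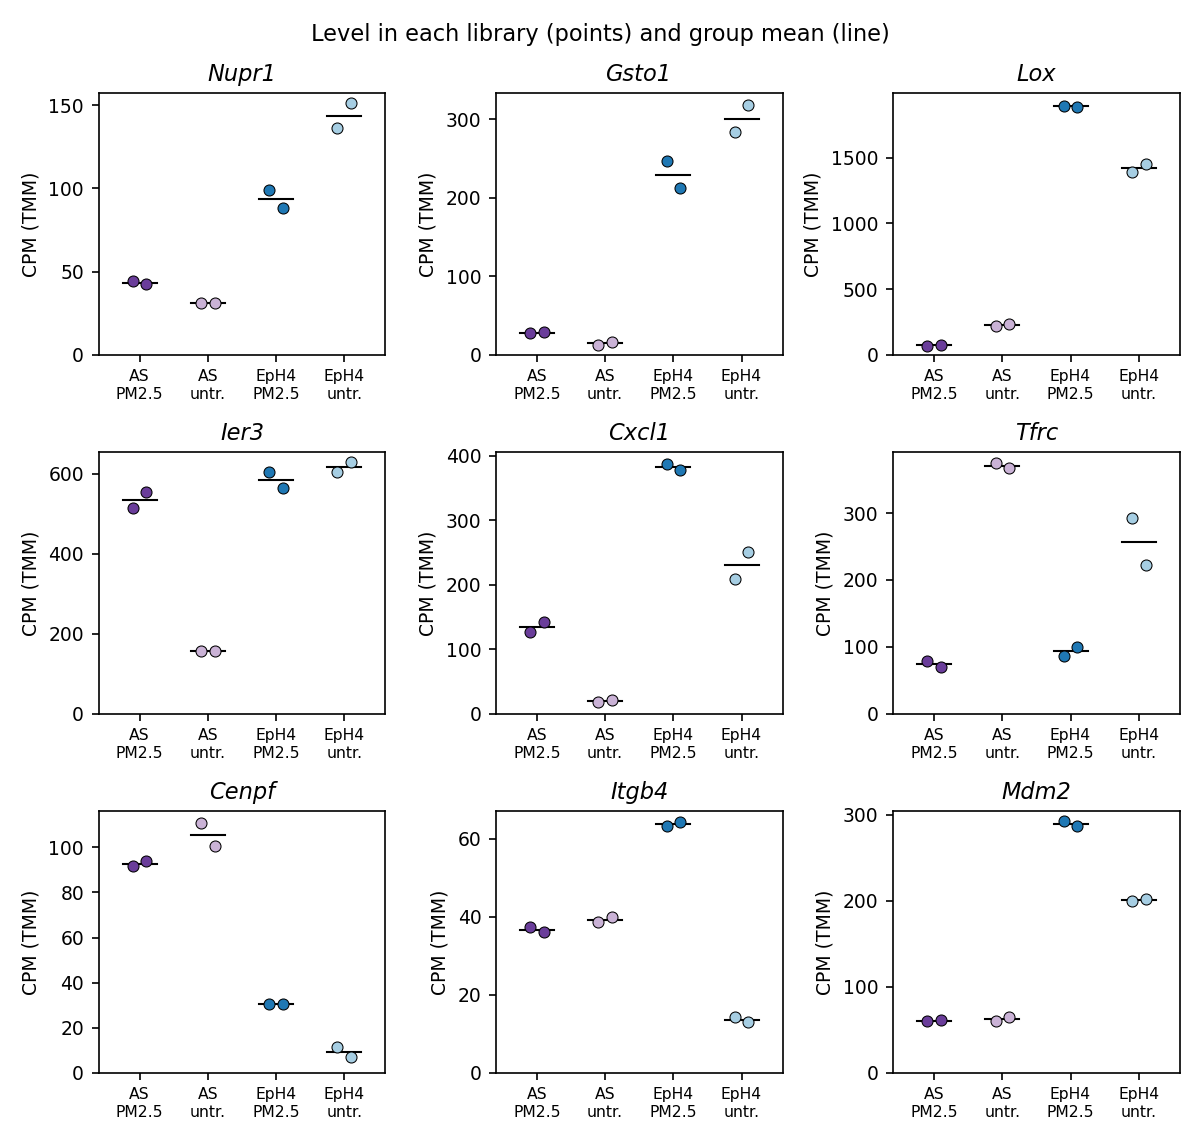
TMM-normalised CPM of 9 genes in each of the 8 libraries (points), with the mean of the 2 libraries of a group as a line; AS stands for EpH4-AS and untr. for untreated. Nupr1, Gsto1 and Lox moved in opposite directions, and Cxcl1 and Tfrc moved the same way in both lines to a different extent. Ier3 was called in EpH4-AS only, and Cenpf, Itgb4 and Mdm2 were called in EpH4 only.

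Of 24 sterol synthesis genes 13 rose in EpH4 (14.3% of all tested genes rose), with 1 rise and 1 fall in EpH4-AS (6.39% and 4.75%). The interaction was negative for 5 and positive for 0 in the main fit (20.8% of members called, against 14.1% of all tested genes). The absence of positive ones did not hold in every fit. Without a filter 8 were negative and 1 positive, and positive ones also appeared without EpH4 with PM2.5 replicate 1. The 5 calls were 2 without either untreated EpH4-AS library or EpH4-AS with PM2.5 replicate 1, and 11 without untreated EpH4 replicate 1, and the 13 rises in EpH4 were 8 without untreated EpH4 replicate 2. Mgst1, a membrane-bound glutathione transferase, had 157 and 164 CPM in EpH4-AS with PM2.5, against 151 and 148 CPM in untreated EpH4-AS. It had 47.9 and 52.6 CPM in EpH4 with PM2.5, against 23.8 and 21.5 CPM in untreated EpH4 (interaction -1.04 ± 0.09, adjusted p = 2.59e-05).

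Bmp6, a ligand that controls hepcidin and bone formation, had a fall called in EpH4 only. Its exposed EpH4-AS libraries also lay below the untreated ones, without a call (log2 change -0.62, adjusted p = 0.241 by edgeR). It had 1.17 and 1.36 CPM in EpH4-AS with PM2.5, against 2.23 and 1.64 CPM in untreated EpH4-AS. It had 2.02 and 1.19 CPM in EpH4 with PM2.5, against 11.7 and 11.5 CPM in untreated EpH4, with an interaction of 2.22 ± 0.39 (adjusted p = 0.00193). Pde1c, a cyclic nucleotide phosphodiesterase, had 7.29 and 7.06 CPM in EpH4-AS with PM2.5, against 3.91 and 5.44 CPM in untreated EpH4-AS. It had 0.152 and 0.0822 CPM in EpH4 with PM2.5, against 0.872 and 0.676 CPM in untreated EpH4, with an interaction of 3.28 ± 0.55 (adjusted p = 0.00144). The rise of Pde1c in EpH4-AS did not pass (log2 change 0.62, adjusted p = 0.0574). Soat2, which esterifies cholesterol, Adtrp and Cox6a2, a muscle isoform of a cytochrome oxidase subunit, fell in EpH4 and were near or under 1 CPM in EpH4-AS, with interactions of 1.996, 1.57 and 1.53 (adjusted p = 0.0161, 0.0154 and 0.0312). The call of Soat2 was lost without EpH4-AS with PM2.5 replicate 2 or untreated EpH4-AS replicate 1 or 2 (adjusted p between 0.0667 and 0.129), that of Adtrp without EpH4-AS with PM2.5 replicate 1 or untreated EpH4-AS replicate 1 (adjusted p between 0.0789 and 0.0919) and that of Cox6a2 without EpH4-AS with PM2.5 replicate 1 or 2, untreated EpH4-AS replicate 1 or EpH4 with PM2.5 replicate 2 (adjusted p between 0.0548 and 0.2). Ak4, a mitochondrial adenylate kinase, had 3 counts over exposed and 14 over untreated EpH4 libraries, a ratio of 0.223 (exact 95% counting interval 0.0411 to 0.799), and its call was lost without EpH4-AS with PM2.5 replicate 1, untreated EpH4-AS replicate 1 or 2, EpH4 with PM2.5 replicate 1 or 2 or untreated EpH4 replicate 2 (adjusted p between 0.0618 and 0.201).

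At the low end of EpH4 expression, Cdc5lrt5 and Cdc5lrt6 had 29 and 18 counts over the exposed EpH4 libraries and 0 over the untreated ones, at least 10.1-fold and 6.25-fold higher. Most of these reads came from replicate 1. The call of Cdc5lrt5 was lost without EpH4 with PM2.5 replicate 1 (adjusted p = 0.159), and that of Cdc5lrt6 without EpH4-AS with PM2.5 replicate 1, untreated EpH4-AS replicate 1 or 2, EpH4 with PM2.5 replicate 1 or untreated EpH4 replicate 2 (adjusted p between 0.052 and 0.171). The pair belong to a family of near-identical copies. Arhgap6, a GTPase-activating protein, had 32.1 and 31.9 CPM in EpH4-AS with PM2.5, against 37.6 and 36.4 CPM in untreated EpH4-AS. It had 0.648 and 0.411 CPM in EpH4 with PM2.5, against 0.182 and 0.0398 CPM in untreated EpH4 (interaction -2.38 ± 0.53, adjusted p = 0.00874), and the call was lost without EpH4 with PM2.5 replicate 1 or untreated EpH4 replicate 2 (adjusted p between 0.0508 and 0.055). Sertad4 rose in EpH4 and was at or near 1 CPM or less in EpH4-AS (interaction -2.37 ± 0.54, adjusted p = 0.00992). Its fall in EpH4-AS did not pass (log2 change -1.65, adjusted p = 0.0631), though exposed and untreated libraries lay apart. The interaction call was lost without EpH4-AS with PM2.5 replicate 1 or untreated EpH4-AS replicate 2.

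Transcripts of the mitochondrial genome rose in both lines and further in EpH4. Of 13, all rose in EpH4 and 8 in EpH4-AS, and 7 had a negative interaction. The complex I subunit mt-Nd5 had 130.2 and 138 CPM in EpH4-AS with PM2.5, against 99 and 102 CPM in untreated EpH4-AS. It had 1868 and 2329 CPM in EpH4 with PM2.5, against 1127 and 931 CPM in untreated EpH4, with an interaction of -0.61 ± 0.14 (adjusted p = 0.0114), lost without EpH4-AS with PM2.5 replicate 1 or untreated EpH4-AS replicate 1 or 2 (adjusted p between 0.0627 and 0.079). The share of mitochondrially encoded genes in all counts was 0.286% ± 0.0229 in EpH4-AS with PM2.5, 0.233% ± 0.0193 in untreated EpH4-AS, 4.63% ± 0.563 in EpH4 with PM2.5 and 2.47% ± 0.364 in untreated EpH4 (SD, n = 2 each). The interaction calls were not stable. They numbered 0 without untreated EpH4-AS replicate 2 or EpH4-AS with PM2.5 replicate 1, 2 without untreated EpH4-AS replicate 1, 3 without EpH4-AS or EpH4 with PM2.5 replicate 2, and 1 by DESeq2. The 8 rises in EpH4-AS were 2 and 4 without untreated EpH4-AS replicates 1 and 2, and 5 and 3 without replicates 1 and 2 with PM2.5. Nuclear-encoded subunits of the same complexes had 2 positive and 1 negative call among 33, with Ndufb8 of complex I at 0.27 (adjusted p = 0.0418), a call lost without EpH4-AS with PM2.5 replicate 1 or 2, untreated EpH4-AS replicate 1 or 2, EpH4 with PM2.5 replicate 2 or untreated EpH4 replicate 2 (adjusted p between 0.0877 and 0.147).

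Where both lines moved the same way, the size differed for genes of iron uptake and detoxification, among others. Tfrc, the transferrin receptor that takes up iron, had 79 and 70.2 CPM in EpH4-AS with PM2.5, against 375 and 367 CPM in untreated EpH4-AS. It had 86.8 and 99.7 CPM in EpH4 with PM2.5, against 293 and 222 CPM in untreated EpH4. It fell in both lines without overlap and further in EpH4-AS, with an interaction of -0.85 ± 0.15 (adjusted p = 0.00184). Ftl1, the ferritin light chain, rose in both, with an interaction of 0.37 ± 0.10 (adjusted p = 0.0275) that was lost without EpH4-AS with PM2.5 replicate 2 or untreated EpH4-AS replicate 1 (adjusted p between 0.127 and 0.176). Pparg, the adipogenic nuclear receptor, fell in both, to 198 and 202 CPM in EpH4-AS with PM2.5, against 259 and 253 CPM in untreated EpH4-AS. It fell further in EpH4 in log2 terms, with 0.495 and 1.03 CPM in EpH4 with PM2.5, against 2.91 and 2.62 CPM in untreated EpH4 (interaction 1.52 ± 0.24, adjusted p = 0.001).

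Gsta4, which conjugates lipid aldehydes to glutathione, had 39.2 and 39.9 CPM in EpH4-AS with PM2.5, against 34 and 30.0 CPM in untreated EpH4-AS. It had 67.2 and 60.9 CPM in EpH4 with PM2.5, against 23.5 and 20.2 CPM in untreated EpH4, with an interaction of -1.24 ± 0.12 (adjusted p = 4.29e-05). Gsta3 rose in both lines as well, with an interaction of -1.35 ± 0.29 (adjusted p = 0.0078, lost without untreated EpH4-AS replicate 2 (adjusted p = 0.158)), and Taldo1 and Pgd of the pentose phosphate pathway had -0.59 and -0.40 (adjusted p = 0.000219 and 0.0042). The call of Pgd was lost without untreated EpH4-AS replicate 2 (adjusted p = 0.0512). Of 32 NRF2 targets 22 rose in EpH4-AS and 24 in EpH4, with 6 positive and 4 negative interactions (31.2% called, against 14.1% of all tested genes). The 6 were 2 without untreated EpH4-AS replicate 1, and 3 without untreated EpH4-AS replicate 2 or EpH4-AS with PM2.5 replicate 2, and the 4 were 8 without untreated EpH4 replicate 1 and 2 without untreated EpH4-AS replicate 2. The 22 rises in EpH4-AS were 13 without untreated EpH4-AS replicate 1.

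Hmox1, the heme-degrading enzyme and a leading NRF2 target, had 3069.9 and 3253 CPM in EpH4-AS with PM2.5, against 1236 and 1216 CPM in untreated EpH4-AS. It had 2196 and 1842 CPM in EpH4 with PM2.5, against 928 and 1005 CPM in untreated EpH4, and its interaction of 0.30 ± 0.11 did not pass (adjusted p = 0.08, 0.00591 without EpH4 with PM2.5 replicate 1). Nqo1, the quinone reductase, had 10.6 and 10.2 CPM in EpH4-AS with PM2.5, against 5.78 and 6.64 CPM in untreated EpH4-AS. It had 181 and 183 CPM in EpH4 with PM2.5, against 83.1 and 60.3 CPM in untreated EpH4, with -0.60 ± 0.23 (adjusted p = 0.101, 0.000198 without untreated EpH4 replicate 1). Cyp1b1, a target of the aryl hydrocarbon receptor, had 0.43 ± 0.51 (adjusted p = 0.626), and Vim, the mesenchymal filament vimentin, had 0.07 ± 0.12 (adjusted p = 0.776). Of 11 aryl hydrocarbon receptor targets 2 had a positive and 1 a negative interaction, and Ahr itself had -0.56 ± 0.14 (adjusted p = 0.0156), a call lost without EpH4-AS with PM2.5 replicate 2, untreated EpH4-AS replicate 1 or 2 or EpH4 with PM2.5 replicate 2 (adjusted p between 0.0548 and 0.109). H2ac18 and H4c18, an H2A and an H4 gene from families of near-identical copies, had 32 and 16 counts over exposed EpH4-AS libraries. Over untreated EpH4-AS libraries both had 0, so the exposed levels were at least 9.73-fold and 4.86-fold higher. The 2 genes rose in EpH4 as well. Pde2a and Inpp5d, a phosphodiesterase and an inositol phosphatase, had interactions of 2.21 and -1.01 (adjusted p = 0.0366 and 0.0394). The call of H2ac18 was lost without EpH4-AS with PM2.5 replicate 1 or untreated EpH4-AS replicate 1 or 2 (adjusted p between 0.116 and 0.158), that of H4c18 without EpH4-AS with PM2.5 replicate 1, untreated EpH4-AS replicate 1 or 2 or EpH4 with PM2.5 replicate 1 or 2 (adjusted p between 0.0506 and 0.172), that of Pde2a without EpH4-AS with PM2.5 replicate 2 or untreated EpH4-AS replicate 1 (adjusted p between 0.19 and 0.225) and that of Inpp5d without EpH4-AS with PM2.5 replicate 1 or 2, untreated EpH4-AS replicate 1 or 2, EpH4 with PM2.5 replicate 1 or 2 or untreated EpH4 replicate 2 (adjusted p between 0.0563 and 0.195).

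Interferon-stimulated genes rose in EpH4 in 17 of 31 and in EpH4-AS in 2, with 2 positive and 3 negative interactions (16.1% of members, against 14.1% of all tested genes), among them Parp9 at -0.68 (adjusted p = 0.0057). Genes of MHC class I presentation rose in 11 and 13 of 17 in EpH4-AS and EpH4, with 2 positive and 2 negative interactions (23.5%). The 31 proteasome subunits had 4 positive and 0 negative interactions (12.9%), led by Psmd7 at 0.39 (adjusted p = 0.00417), and the rise of Psmd7 was called in EpH4-AS only. None of 19 heat shock chaperones had a called interaction by edgeR, the nearest being Dnajb4 at 0.26 (adjusted p = 0.0751). Neither the 6 tested epithelial nor the 3 tested leukocyte markers had a called interaction by edgeR, at an unadjusted p under 0.05 or by DESeq2 (limma on RPKM called 1 epithelial marker), with Ovol1 nearest among the first at 1.49 (adjusted p = 0.376), and none of 6 endothelial markers had enough reads.

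The interaction also says how far apart the lines stood. Of the 1932 called genes, 1075 had a smaller distance between the lines with PM2.5 than without it, 555 a larger one, and in 302 the order of the lines turned round. Over all 13716 tested genes those numbers were 7029, 5889 and 798. The median distance of the called genes was 0.86 on the log2 scale with PM2.5 and 1.02 untreated. Since genes were called on the change in that distance, these counts are a description. For 47 of the called genes (2.43%) the sign of the interaction differed between the log2 scale and plain CPM differences, 22 of them among the 51 genes that moved the same way in both lines and 0 among the 217 opposite genes. Cxcl1, Ftl1, Pparg, Pde2a, H2ac18 and H4c18 were among the 22.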

How the data were processed

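RNA from mouse EpH4-AS and EpH4 spheroids, with and without PM2.5, was sequenced from polyadenylated RNA in 8 libraries, 2 per group, per the labels' protocols. The deposited raw counts per gene are whole numbers, and the deposited RPKM values (scaled for gene length and library total) were made by the authors, per the file headers. Reads were mapped to GRCm39 per the submitters' processing notes, while the aligner and counter were not given in the sources used here. Total counts lay between 15393256 and 27765982, which limits precision for genes of few reads.

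The counts were normalised by TMM and tested in R 4.3.3 with edgeR 4.0.16 (glmQLFit and glmQLFTest, two-sided, Benjamini-Hochberg adjustment over all 13716 genes kept by filterByExpr, which held 99.964% of counts). All 4 groups shared 1 fit with 4 residual degrees of freedom, without a replicate block. A line effect or interaction was called at an adjusted p under 0.05. Log2 values carry standard errors from the same fit. Against a group at 0, a fold is a bound with a floor of 3 counts over the group, and counting intervals cover counting error only.

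The members and gene lists were chosen with earlier results of these data known, and 6 lists and 2 motifs were added after the results had been seen. Genes were named by size of interaction within each kind, at 5 CPM or more in the highest group and without predicted models or pseudogenes, with up to 4 members per list by smallest adjusted p. A few genes were always named (Hmox1, Tfrc, Cxcl1, Nfkbia, Nqo1, Cyp1b1, Il6 and Vim), and others described were chosen after their values were seen. Some genes that the rule names are not reported here. Gene types came from GENCODE on GRCm38, and promoter sequences from RefSeq on GRCm38.p6.

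Alternatives were DESeq2 1.42.0, limma 3.58.1 on log2(RPKM + 1), other scalings and filters, TREAT against 1.5-fold, a replicate block, thinned libraries, leaving out each library (the lone library left in a group is then assumed to vary like the others), and, chosen after seeing the data, a crossed block and limma-voom with a weight per line. Whether replicate numbers pair libraries was checked by correlating deviations from group means. The steps were tested on simulated data.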

Additional observations from a re-analysis of the deposited data

Results flagged for a closer look

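The test of the difference between the lines itself picked out 1932 genes, and the named ones among them are given here with their log2 interaction. Opposite in the lines were Acox2 (2.89), Sprr1a (2.0004), Fam171b (1.54), Epm2a (1.42), Tenm4 (1.41), Gsto1 (1.35), Pltp (-2.65), Lox (-2.05), Mpeg1 (-1.99), Tmem158 (-1.50), Eepd1 (-1.34) and Casp1 (-1.32). Called in EpH4-AS only were Zan (5.26), Snhg4 (2.05), Ier3 (1.85), Stard5 (1.61), Srp54c (1.56), Lcn2 (1.40), Fam177a (-2.86), Col3a1 (-2.62), Fhl1 (-1.79), Clip4 (-1.67), Fabp4 (-1.56) and Gask1b (-1.44). Called in EpH4 only were Cdc5lrt5 (-7.34), Cdc5lrt6 (-5.99), H2bc7 (-2.73), H2bc4 (-2.73), Arhgap6 (-2.38), Sertad4 (-2.37), Pde1c (3.28), Bmp6 (2.22), Ak4 (2.14), Soat2 (1.996), Adtrp (1.57) and Cox6a2 (1.53). Moving the same way by different amounts were H2ac18 (6.44), H4c18 (5.32), Pde2a (2.21), Gsta3 (-1.35), Gsta4 (-1.24), Inpp5d (-1.01), Tfrc (-0.85), Cxcl1 (2.01) and Nfkbia (0.84). With 2 libraries per group no library could be tested for standing apart from its group.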

How the results depend on the processing

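Against 1932 called interactions, DESeq2 size factors, library totals, DESeq2's own test, limma on RPKM, no filter, stricter filters, thinned libraries, removal of mitochondrial genes and limma-voom with a weight per line (chosen after seeing the data) gave 1317 to 2440. TREAT against 1.5-fold left 66 called, 64 over 2-fold, 0 opposite, 36 in EpH4 only, 14 in EpH4-AS only and 0 in the same direction. Limma on RPKM left 80 over 2-fold, where a pseudocount of 1 shrinks low genes by construction. Without a filter 330 were opposite and 104 in the same direction. With DESeq2 267 were called in EpH4-AS only and 33 in the same direction. With line effects at unadjusted p, 575 were opposite and 93 in the same direction. Leaving out 1 library gave 875 to 2621 called, 160 to 343 over 2-fold, 38 to 352 opposite, 606 to 1505 in EpH4 only, 107 to 503 in EpH4-AS only and 13 to 99 in the same direction. Cyp1b1 and Zan turned to -0.43 and -0.063 by limma on RPKM, and Vim, at -0.066 to 0.225 with 1 library left out, turned without EpH4-AS with PM2.5 replicate 2; the cause was not tested. With the replicate number as a block 1580 were called, but the numbers did not pair the libraries (correlations of deviations -0.101 to 0.0646). With the pairing crossed in untreated EpH4, chosen after seeing the data, 2802 were called, 417 opposite and 127 in the same direction. With 2 libraries per group, genes of few reads and small changes could not be resolved. A shared spread was assumed for both lines although EpH4-AS varied less. The median standard error was 0.083 for the EpH4 effect and 0.092 for the EpH4-AS effect. With a weight per line, 942 genes were called in EpH4 only, against 1107 in the main fit. In EpH4-AS only, 553 were called, against 413.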

Other observations

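Collagen-modifying enzymes and glutathione S-transferases were not uniform within their groups. Of 21 measured collagen-modifying genes 4 had a positive and 4 a negative interaction (14.1% of all tested genes were called), running from -2.05 for Lox to 1.14 for Plod1 on the log2 scale. Of 22 glutathione S-transferases 2 had a positive and 4 a negative interaction, with Gsto1 at 1.35 and Gsta4 at -1.24. In the limma-voom fit with a weight per line, 189 of the 217 opposite genes were again opposite, 25 were called in EpH4-AS only, 1 in EpH4 only and 2 were not called, and 95 genes called in EpH4 only became opposite.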
